A study of Homo sapiens with 6 samples.

Results

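The transcription factor p53 is kept low in unstressed cells by the ubiquitin ligase MDM2 and accumulates after DNA damage and other stress. It then binds the promoters or introns of a set of target genes whose products stop the cell cycle, repair DNA, start apoptosis or adjust metabolism, and MDM2 itself is among them, which closes a feedback loop. A set of 30 p53 target genes was followed in HCCLM3, an established human hepatocellular carcinoma line known for its metastatic capacity, and all 30 were found by symbol among the 58302 genes listed.

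In the SCARNA13 ASO group (3 libraries) the cells carried a transfected antisense oligonucleotide named for SCARNA13, a guide RNA of the Cajal body. Antisense oligonucleotides of this kind base-pair with their target and lower its level. In the Control ASO group (3 libraries) the cells carried a control oligonucleotide, so both groups share the line and the transfection. The comparison asked which genes lie downstream of SCARNA13. No time point, genotype or separate culture is labelled, and p-values therefore cover only how far these libraries vary, part of which can be technical. In bulk RNA, fewer cells of a kind and less RNA per cell cannot be told apart.

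Libraries held between 20457474 and 25173559 reads assigned to genes. SCARNA13 itself rested on 7 reads in the SCARNA13 ASO libraries and 13 reads in the Control ASO libraries. Its values were 0.268, 0.383 and 0.468 FPKM in SCARNA13 ASO libraries and 0.717, 0.683 and 0.556 FPKM in Control ASO libraries. FPKM are fragments scaled by transcript length and by a library size, which here is the size that the deposited values imply. After scaling by that size, SCARNA13 ASO reads were 0.53 of Control ASO reads (exact 95% bounds 0.179 and 1.43, which cover only the counting of reads). At this depth a decrease was not detectable. Its host gene SNHG10 had 3.05, 3.55 and 4.397 FPKM in SCARNA13 ASO libraries and 4.43, 4.50 and 6.36 FPKM in Control ASO libraries. Scaled in the same way, its SCARNA13 ASO reads were 0.736 of Control ASO reads (0.654 to 0.829, counting of reads only). SNHG10 did not reach the threshold of the fits described below. SCARNA13 lies inside SNHG10 on the same strand, and effects of SCARNA13 and of SNHG10 cannot be told apart here. Of 8 markers of hepatocytes and liver tumour epithelium, 3 reached 1 FPKM in every library, all of them keratins (KRT8, KRT18 and KRT19), while ALB, AFP, APOA1, TTR and EPCAM did not. None of 7 markers of immune, fibroblast and endothelial cells reached 1 FPKM, and their summed level was 0.314 to 0.344 FPKM in SCARNA13 ASO libraries and 0.358 to 0.591 FPKM in Control ASO libraries. Replicate 3 stood apart from the other numbers in both groups, along the GC content of the genes, and the calls are therefore also given for replicates 1 and 2 alone. Library size implied by the deposited values was 1.21 to 1.24 times the assigned reads in replicates 1 and 2 of both groups. It was 0.633 times in Control ASO replicate 3 and 0.76 times in SCARNA13 ASO replicate 3, so the same share of reads gave a higher FPKM there. Genes above 0 numbered 19362 and 19860 in those libraries, against 22572 to 22794 in the others.

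The p53 targets that passed a test went in both directions, and most members did not pass. Values are given from a fit on deposited values with no pairing, from a fit that pairs libraries of the same replicate number after correction for GC content, and from a fit of replicates 1 and 2 alone. The unpaired fit called none of the 29 members tested. In the paired, GC-corrected fit GADD45A and GDF15 rose, by 1.44-fold and 1.24-fold, DDB2 fell by 28.0%, and the other 26 did not pass. That was 6.9% of the members tested called higher and 3.45% lower, against 3.06% and 2.15% of all genes. CDKN1A, MDM2 and BAX, the best known p53 targets for arrest, feedback and death, had fold changes of 0.997, 1.01 and 0.998 in the paired fit. Their intervals were wider in the unpaired fit.

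The promoter windows of the members were searched for the p53 consensus decamer, a motif of 10 bases that a p53 dimer contacts and that is its own reverse complement, so that 1 search covers both strands. The windows, taken from RefSeq on GRCh38.p14, ran from 250 bases before to 50 bases after each annotated start, and 36 windows matched 24 of the members. An exact match lay in 6 of the 36 windows (16.7%), against 6.63% of all 35116 windows. The members were chosen as known p53 targets, so this share is a description only. The matching stretches are printed to show where the motif lies in a gene that fell and in genes that did not pass or were not tested; a match is not a measured binding site. Each is 30 bases, 5′ to 3′ along the gene's strand, with the match in capitals. The position of its first base is counted from an annotated start, negative before it. DDB2 (chr11:47214975-47215004, plus strand, position 6) held 2 exact matches with 1 base between them, all in capitals here. MDM2 is the exception in the set, since it had no exact match: its capitals mark 2 adjacent copies with at most 2 mismatches in their 20 bases, a pair found in 0.285% of all windows. Such a pair was found in 4 members, MDM2, AEN and FAS among them. The 2 DDB2 matches in capitals, with 1 base between them, do not form such a pair.
DDB2: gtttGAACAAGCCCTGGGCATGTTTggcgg
FDXR: gggcaggagcGGGCTTGCCCtgcggagcag
AEN: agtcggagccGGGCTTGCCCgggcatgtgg
PLK2: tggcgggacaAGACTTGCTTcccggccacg
FAS: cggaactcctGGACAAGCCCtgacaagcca
SESN1: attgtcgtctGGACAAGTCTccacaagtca
MDM2: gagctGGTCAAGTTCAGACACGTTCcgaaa

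The matches of FDXR (chr17:74872986-74873015, minus strand) and AEN (chr15:88621296-88621325, plus strand) began at positions -11 and -34, and those of PLK2 (chr5:58460199-58460228, minus strand) and FAS (chr10:88991299-88991328, plus strand) at -132 and -122. In SESN1 (chr6:109009018-109009047, minus strand) it began at -49. The MDM2 pair (chr12:68808918-68808947, plus strand) began at -94 of a start inside the gene. Starts used for the other printed genes also lay inside the annotated bounds of their genes. The SESN1 start lay farthest in, since that gene begins at 109094819 on the minus strand. Windows of CDKN1A, BAX, BBC3 and GDF15 held no exact match, which says only that these letters are not in this window. Of the genes with a printed sequence, DDB2 fell in the paired, GC-corrected fit, and FDXR, AEN, PLK2, FAS and MDM2 did not pass.

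The targets covered a wide range of levels. GDF15, a secreted stress cytokine, had the highest 6-library mean of the set, with 238, 264 and 795 FPKM in SCARNA13 ASO libraries and 192, 199 and 793 FPKM in Control ASO libraries. CDKN1A was above GDF15 in each Control ASO library. By the mean of the 6 libraries GDF15 and CDKN1A were both at percentile 98.8 of the 10120 genes tested, with BAX, the pore-forming death protein, at percentile 97.8. Of the 29 members tested, 18 lay above the median level of the tested genes. At the low end, ZMAT3 averaged 1.19 FPKM ± 0.576 after SCARNA13 ASO and 1.327 FPKM ± 0.65 in Control ASO (SD, n = 3 each). SESN1, which restrains growth signalling, missed the filter of a mean of 1 FPKM and was not tested. Its 178 SCARNA13 ASO reads against 194 Control ASO reads gave a ratio of 0.904 (exact 95% interval 0.733 to 1.11, counting error only).

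**Figure D1:**
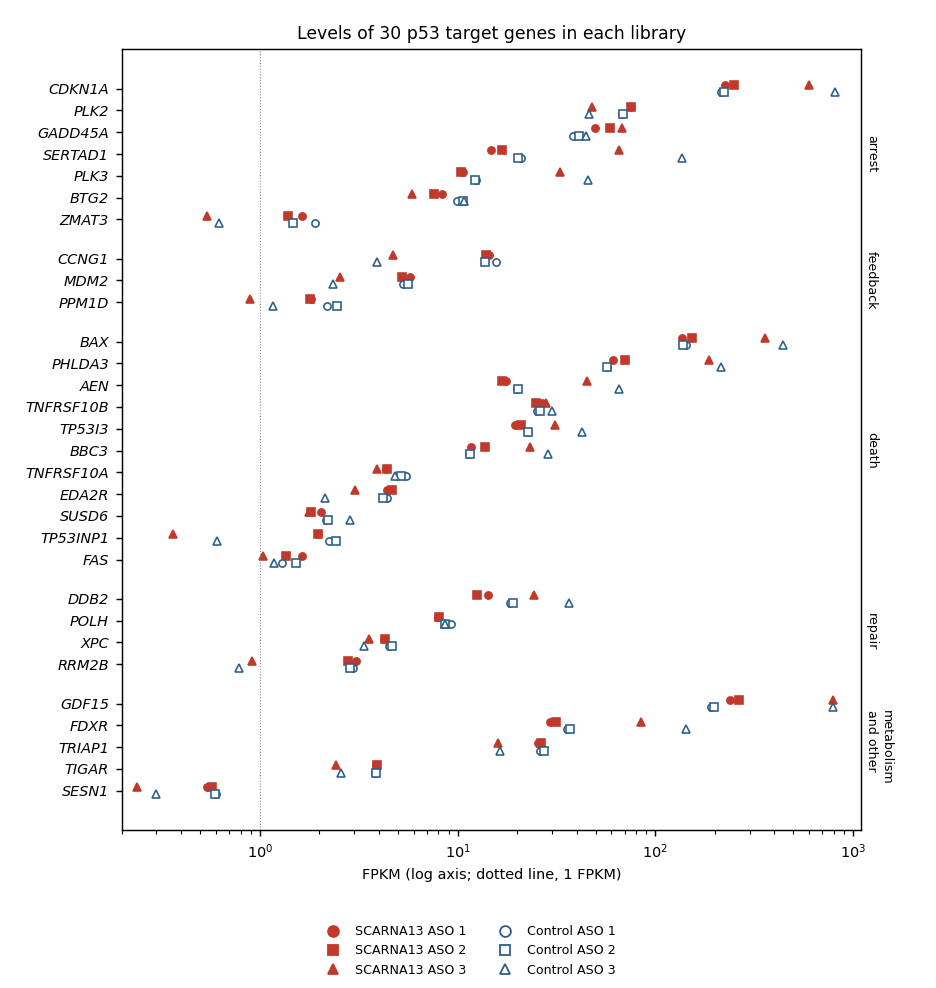
FPKM on a log axis for the 30 p53 target genes in each of the 6 libraries, grouped by role, with filled symbols for SCARNA13 ASO, open symbols for Control ASO and the shape giving the replicate number. Replicate 3 (triangles) lies far from replicates 1 and 2 for many genes in both groups, as for GDF15 at 795 and 793 FPKM.

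The shift of the members in replicate 3 went along with their base composition. The 8 members with a transcript GC content above 55% were all higher in replicate 3 than in replicates 1 and 2, and the 10 members under 46% were all lower. GDF15, at 62.9% GC, stood 1.84 higher in replicate 3 on the log2(FPKM + 0.5) scale. Members between those bounds varied, with SERTAD1, at 53.9% GC, higher by 2.36 and AEN, at 50.8% GC, higher by 1.53. Over the 29 members tested, Pearson's r between GC content and this shift was 0.852, a description across genes that share the same 6 libraries. Their median GC content was 50.3%, against 51.2% for all genes tested.

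**Figure D2:**
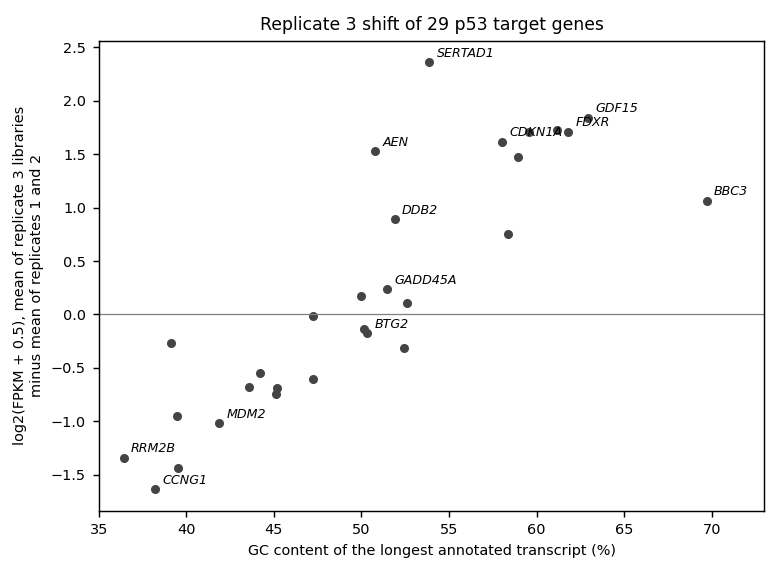
GC content of the longest annotated transcript (x axis, %) against the replicate 3 shift (y axis, mean log2(FPKM + 0.5) of the 2 replicate 3 libraries minus the mean of the other 4) for the 29 tested members, each a point. Members above 55% GC sit above 0 and members under 46% sit below 0.

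The comparison was tested with limma-trend on log2(FPKM + 0.5) over every gene whose 6-library mean reached 1 FPKM, with Benjamini-Hochberg adjustment over all of them. On deposited values and with no pairing, 0 of 10120 genes passed (0% higher and 0% lower). There 173 genes had an unadjusted p under 0.05, 1 of them a member (BTG2). Run on reads recovered from the FPKM values, limma-voom likewise called 0, and 162 genes had an unadjusted p that low. In the unpaired limma-trend fit the standard errors of the members ran from 0.151 to 0.925 log2 units. With the replicate number as a block and GC correction they ran from 0.05 to 0.133, and 3.06% of 10104 genes were called higher and 2.15% lower. Against this background 2 of 29 members were called higher (6.9%) and 1 lower (3.45%). In replicates 1 and 2 alone, on deposited values, 4.52% of all genes were called higher and 4.59% lower, and the members gave 2 higher and 4 lower. With pairing and GC correction, replicates 1 and 2 gave 4.2% higher and 3.36% lower over all genes, and 2 members higher and 2 lower (DDB2 and FDXR). The median log2 fold change of the members was -0.03 in the paired, GC-corrected fit, and that of all genes 0.00026.

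All 3 calls of the paired, GC-corrected fit were lost when replicate 1 or replicate 2 was left out of both groups, where 6 and 0 genes in all were called higher and 8 and 0 lower. They were also lost when no filter on low values was applied. Without replicate 3 of both groups GADD45A, GDF15 and DDB2 were called both by that fit and on deposited values.

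Of the 7 genes listed under cell cycle arrest, 1 rose, 0 fell and 6 did not pass in the paired, GC-corrected fit. Over all genes 3.06% were called higher and 2.15% lower there. The one that rose was GADD45A. This gene (ENSG00000116717, chr1:67685061-67688338, plus strand) encodes a stress protein that binds PCNA and the CDK1 complex and is also known as a target of the stress factor ATF4. It stood at 49.8, 58.8 and 67.7 FPKM in SCARNA13 ASO libraries and 38.6, 41.3 and 44.4 FPKM in Control ASO libraries. Every SCARNA13 ASO library was above every Control ASO library, and GADD45A was the only member with groups that did not overlap in this direction, which 4.0% of all genes showed. Its log2 fold change was 0.52 ± 0.065 (SE, n = 3 pairs; limma adjusted p = 0.0365), against 0.49 ± 0.23 with no pairing (adjusted p = 1.0). Replicates 1 and 2 alone gave 0.44 ± 0.089 (limma adjusted p = 0.0477). By exact permutation of its FPKM values (two-sided) p was 0.1, the lowest that a design of 3 against 3 can reach.

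CDKN1A (ENSG00000124762, chr6:36676460-36687339, plus strand) encodes p21, the inhibitor of cyclin-dependent kinases through which p53 halts the cycle. Its values were 224, 251 and 602 FPKM in SCARNA13 ASO libraries and 216, 222 and 813 FPKM in Control ASO libraries. The groups overlapped, and the pairs disagreed in sign: GC-corrected differences were 0.07 and 0.16 in replicates 1 and 2 and -0.24 in replicate 3. The fold change was 0.997 with a 95% interval of 0.847 to 1.17 in the paired, GC-corrected fit (limma adjusted p = 0.979).

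BTG2, an antiproliferative protein that recruits the deadenylase to mRNAs, had 8.35, 7.59 and 5.85 FPKM in SCARNA13 ASO libraries and 9.98, 10.6 and 10.8 FPKM in Control ASO libraries. Its groups did not overlap, with every SCARNA13 ASO library lower. Its log2 fold change of -0.48 ± 0.12 (SE, n = 3 pairs) did not pass in the paired, GC-corrected fit (limma adjusted p = 0.0747). In replicates 1 and 2 alone it passed on deposited values at -0.35 ± 0.067 (limma adjusted p = 0.0436) and did not pass with pairing and GC correction, at -0.32 ± 0.068 (limma adjusted p = 0.0627).

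SERTAD1, which binds the kinase CDK4, had 14.79, 16.71 and 65.6 FPKM in SCARNA13 ASO libraries and 21.03, 20.16 and 136 FPKM in Control ASO libraries. It was lower in 3 of 3 pairs, at -0.55 ± 0.133 on the log2 scale (SE, n = 3 pairs; limma adjusted p = 0.0716), and in replicates 1 and 2 alone passed on deposited values (-0.38, limma adjusted p = 0.0415) but not with pairing and GC correction (-0.36, adjusted p = 0.0554). The stress-induced polo-like kinases differed from each other in sign without passing: PLK2 stood at 0.12 ± 0.055 and PLK3 at -0.22 ± 0.05 in the paired, GC-corrected fit. ZMAT3, a zinc finger protein that binds RNA, stood at -0.14 ± 0.098.

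**Figure D3:**
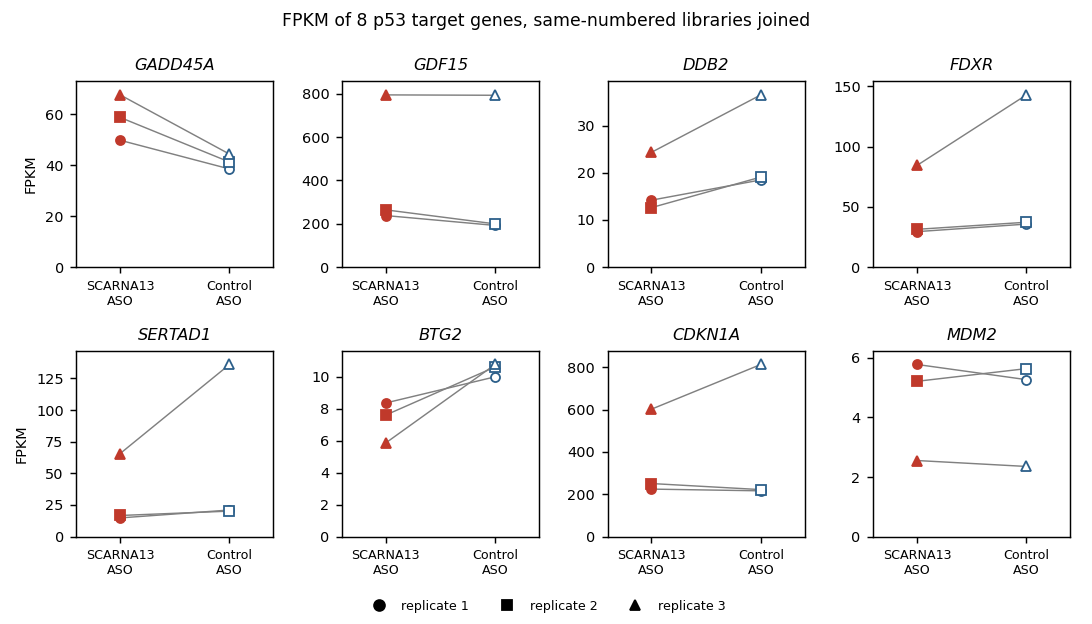
FPKM of 8 members in SCARNA13 ASO libraries (left, filled) and Control ASO libraries (right, open), with lines joining libraries of the same replicate number. GADD45A is higher and BTG2 lower in every SCARNA13 ASO library, DDB2, FDXR and SERTAD1 are lower within each pair, and CDKN1A and MDM2 change sign between pairs.

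The genes of the feedback loop did not pass. MDM2 stood at 5.78, 5.21 and 2.55 FPKM in SCARNA13 ASO libraries and 5.27, 5.64 and 2.35 FPKM in Control ASO libraries, with overlapping groups. Its fold change was 1.01 with a 95% interval of 0.89 to 1.16 in the paired, GC-corrected fit (limma adjusted p = 0.867). CCNG1, cyclin G1, which recruits a phosphatase to MDM2, had a fold change of 1.01 (0.893 to 1.15). PPM1D, the phosphatase that switches p53 off after damage, averaged 1.502 FPKM ± 0.528 after SCARNA13 ASO and 1.933 FPKM ± 0.677 in Control ASO (SD, n = 3 each). It was lower in 3 of 3 pairs, at -0.28 ± 0.089 on the log2 scale, and did not pass (limma adjusted p = 0.11).

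Of the 11 death genes, 0 passed in any of the 3 fits named above, while 4 had an unadjusted p under 0.05 in the paired, GC-corrected limma fit, a level that 31.3% of all genes tested reached. BAX stood at 137, 154 and 360 FPKM in SCARNA13 ASO libraries and 144, 139 and 440 FPKM in Control ASO libraries, and BBC3, which encodes the BH3-only protein PUMA, at 11.7, 13.7 and 23.3 FPKM in SCARNA13 ASO libraries and 11.5, 11.5 and 28.5 FPKM in Control ASO libraries. Both sets of groups overlapped, and the fold changes were 0.998 (95% interval 0.89 to 1.12) for BAX and 1.06 (0.947 to 1.19) for BBC3. The death receptor genes differed. TNFRSF10B, encoding the TRAIL receptor DR5, averaged 26.6 FPKM ± 1.62 after SCARNA13 ASO and 27.2 FPKM ± 2.48 in Control ASO (SD, n = 3 each), a fold change of 0.995 (0.898 to 1.10). TNFRSF10A, encoding the related receptor DR4, had 4.33, 4.39 and 3.90 FPKM in SCARNA13 ASO libraries and 5.46, 5.19 and 4.84 FPKM in Control ASO libraries, with no overlap. Its log2 fold change was -0.24 ± 0.065 (SE, n = 3 pairs; limma adjusted p = 0.0843). Exons of antisense genes cover 16.6% of its exonic bases, and without strand their reads cannot be separated from its own.

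FAS, the receptor of Fas ligand, was near the filter at 1.341 FPKM ± 0.293 after SCARNA13 ASO and 1.334 FPKM ± 0.169 in Control ASO (SD, n = 3 each). Exons of ACTA2 on the opposite strand, a gene at a mean of 5.35 FPKM, cover part of FAS, and whether counting used strand is not stated. EDA2R, a receptor of ectodysplasin A2, and PHLDA3, which opposes AKT at membranes, were higher in 3 of 3 pairs at 0.19 ± 0.092 and 0.13 ± 0.067 on the log2 scale and did not pass. AEN, a nuclease of apoptosis, stood at -0.30 ± 0.079 (limma adjusted p = 0.0802), TP53I3, a quinone oxidoreductase, at -0.20 ± 0.053 (limma adjusted p = 0.0856) and TP53INP1, a cofactor of p53 and autophagy protein, at -0.28 ± 0.106 (limma adjusted p = 0.155). SUSD6, a membrane protein that slows growth, averaged 1.87 FPKM ± 0.146 after SCARNA13 ASO and 2.41 FPKM ± 0.387 in Control ASO, with no overlap, and stood at -0.25 ± 0.113 (limma adjusted p = 0.209).

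Among the repair genes DDB2 was the member that fell. DDB2 (ENSG00000134574, chr11:47214465-47239240, plus strand) encodes the subunit that recognises ultraviolet lesions for nucleotide excision repair. Its values were 14.2, 12.6 and 24.3 FPKM in SCARNA13 ASO libraries and 18.5, 19.1 and 36.5 FPKM in Control ASO libraries. The groups overlapped, with both replicate 3 libraries high, and within each number the SCARNA13 ASO library was the lower one. GC-corrected differences were -0.35, -0.55 and -0.52 in replicates 1, 2 and 3. The log2 fold change was -0.47 ± 0.062 (SE, n = 3 pairs; limma adjusted p = 0.037), and -0.51 ± 0.385 with no pairing (adjusted p = 1.0). Replicates 1 and 2 alone gave -0.47 ± 0.069 (limma adjusted p = 0.0273).

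XPC, which starts the same repair pathway beside DDB2, did not pass, with 4.24, 4.30 and 3.55 FPKM in SCARNA13 ASO libraries and 4.47, 4.63 and 3.38 FPKM in Control ASO libraries. Its fold change was 1.00 with a 95% interval of 0.875 to 1.15, and exons of antisense genes cover 30.4% of its exonic bases. POLH, the polymerase that copies past ultraviolet lesions, averaged 8.03 FPKM ± 0.096 after SCARNA13 ASO and 8.86 FPKM ± 0.334 in Control ASO (SD, n = 3 each). Its groups did not overlap, but its log2 fold change of -0.13 ± 0.061 did not pass (limma adjusted p = 0.211). RRM2B, the p53-induced subunit of ribonucleotide reductase, had a fold change of 1.02 (0.879 to 1.17).

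The remaining targets act in metabolism, survival and secretion. GDF15 (ENSG00000130513, chr19:18374731-18389176, plus strand) is, like GADD45A, known as a target of the ATF4 stress response as well as of p53. Whether either factor lay behind the values of these 2 genes was not tested. GDF15 rose by 0.31 ± 0.055 on the log2 scale in the paired, GC-corrected fit (SE, n = 3 pairs, limma adjusted p = 0.0477). Replicates 1 and 2 gave 0.36 ± 0.064 (limma adjusted p = 0.0395). On deposited values the groups overlapped and the replicate 3 libraries were nearly level, at 795 FPKM after SCARNA13 ASO and 793 FPKM in Control ASO. Those FPKM values rest on unequal implied library sizes. In reads, replicate 3 held 25808 for GDF15 after SCARNA13 ASO, of 20457474 assigned, and 21676 in Control ASO, of 20663908 assigned. The GC-corrected difference of that pair was 0.27 on the log2 scale. With no pairing, the log2 fold change of GDF15 on deposited values was 0.24 ± 0.735 (limma adjusted p = 1.0). That unpaired value turned to -0.32 without SCARNA13 ASO replicate 3, -0.11 without Control ASO replicate 1 and -0.085 without Control ASO replicate 2. With a pseudocount of 1 the adjusted p was 0.0526.

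FDXR, the mitochondrial ferredoxin reductase, had 29.4, 31.3 and 84.5 FPKM in SCARNA13 ASO libraries and 35.7, 37.2 and 143 FPKM in Control ASO libraries, lower in 3 of 3 pairs. Its log2 fold change was -0.35 ± 0.067 (SE, n = 3 pairs; limma adjusted p = 0.0517), just short of the threshold, and in replicates 1 and 2 it passed both on deposited values, at -0.26 ± 0.053 (limma adjusted p = 0.0476), and with pairing and GC correction (adjusted p = 0.0366). TIGAR, which lowers fructose bisphosphate and glycolysis, averaged 3.41 FPKM ± 0.847 after SCARNA13 ASO and 3.43 FPKM ± 0.744 in Control ASO (SD, n = 3 each). Other annotated exons cover 45.6% of its exonic bases. TRIAP1, a mitochondrial survival protein, had a fold change of 0.969 (0.887 to 1.06).

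**Figure D4:**
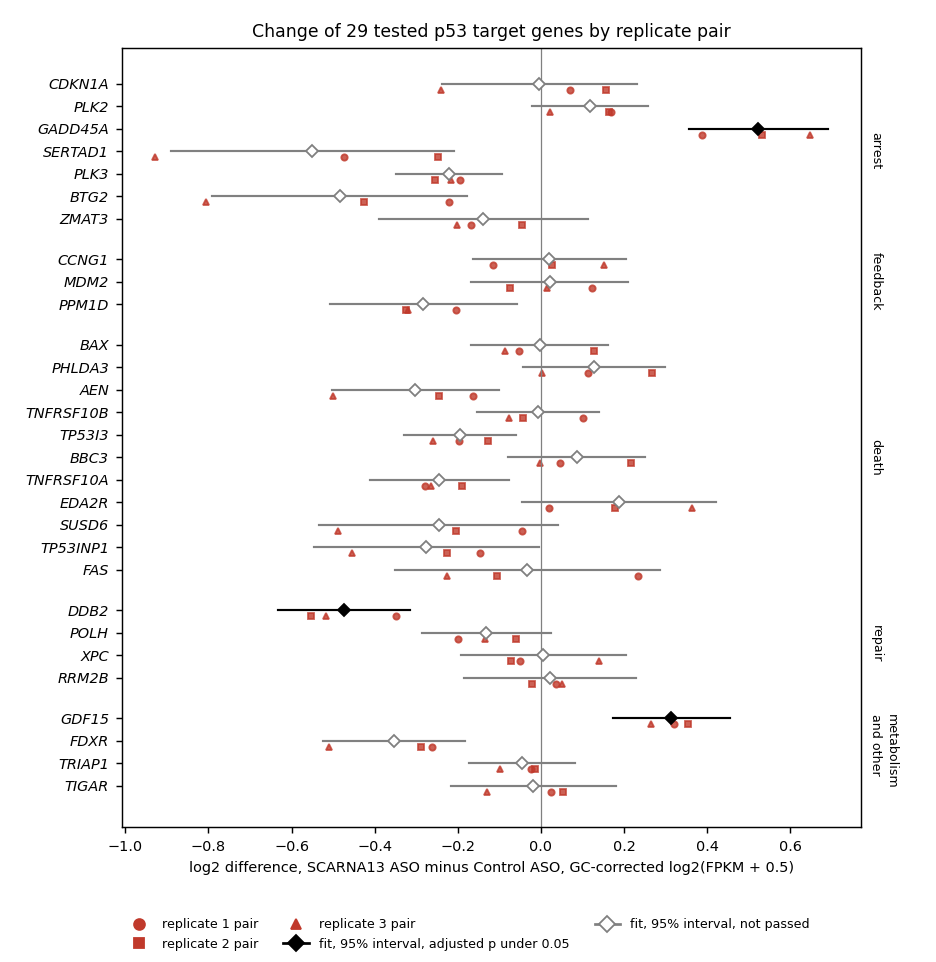
GC-corrected log2 differences of SCARNA13 ASO minus Control ASO for the 29 tested members by replicate pair (small red symbols), with the limma estimate (diamond) and its 95% interval (line), filled where the adjusted p is under 0.05. GADD45A and GDF15 lie to the right, DDB2 to the left, and CDKN1A, BAX and MDM2 at 0.

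Over the members as a whole, 14 of 29 were lower in 3 of 3 pairs after GC correction (48.3%), against 28.3% of all genes, and 5 were higher in 3 of 3 pairs (17.2%), against 28.9% of all genes. At an unadjusted p under 0.05 in the paired, GC-corrected fit, 10 members were lower, against 15.5% of all genes, and 2 were higher, against 15.8%. The 9 members lower at that level that did not pass had adjusted p-values from 0.0517 to 0.155. In FPKM values, 4 members (BTG2, TNFRSF10A, SUSD6 and POLH) had groups that did not overlap with SCARNA13 ASO lower, against 4.44% of all genes. These FPKM values rest on unequal implied library sizes in replicate 3. In reads, SCARNA13 ASO replicate 3 held 445 for POLH, 179 for TNFRSF10A, 160 for SUSD6 and 251 for BTG2. Control ASO replicate 3 held 402, 187, 218 and 388, of a similar number of assigned reads. Whether POLH was lower in that pair thus depends on the scaling. In the paired, GC-corrected fit the 95% interval of the fold change lay within 2-fold of no change for all 29 members. Those intervals hold only if the replicate numbers are pairs. In the unpaired fit they were wider and reached past 2-fold, as for CDKN1A (0.314 to 2.897), BAX (0.345 to 2.635) and MDM2 (0.513 to 2.055).

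Of 19 listed regulators of p53, 12 were tested, and 0 passed in the paired, GC-corrected fit of limma, with 1 at an unadjusted p under 0.05, against 31.3% of all genes tested. That gene, the kinase HIPK2, stood at 0.42 ± 0.081 on the log2 scale (limma adjusted p = 0.0527), and in replicates 1 and 2 alone it passed with pairing and GC correction (adjusted p = 0.0434) and did not pass on deposited values (adjusted p = 0.0633). HIPK2 is named after its values were seen. MDM4, the partner of MDM2 in restraining p53, had 1.419, 1.204 and 0.941 FPKM in SCARNA13 ASO libraries and 1.207, 1.197 and 0.534 FPKM in Control ASO libraries. Its log2 fold change was 0.20 ± 0.117 (SE, n = 3 pairs; limma adjusted p = 0.293).

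A list of 23 further p53 targets had 18 members tested, of which 3 rose, 0 fell and 15 did not pass in the paired, GC-corrected fit, where 3.06% of all genes were called higher and 2.15% lower. In replicates 1 and 2 alone, 3 were called higher (SESN2, IGFBP3 and TM7SF3) both on deposited values and with pairing and GC correction. There 1 was called lower in each, LIF on deposited values and SFN with pairing and GC correction, genes named after their values were seen, as was TM7SF3. SESN2, a sestrin that is also induced by ATF4, rose 1.36-fold, with 33.7, 32.6 and 115 FPKM in SCARNA13 ASO libraries and 23.8, 23.5 and 102 FPKM in Control ASO libraries. IGFBP3, which binds insulin-like growth factors, rose 1.45-fold, with 107, 98.9 and 119.7 FPKM in SCARNA13 ASO libraries and 77.1, 76.8 and 72.7 FPKM in Control ASO libraries. DRAM1, a lysosomal protein of autophagy, rose 1.31-fold (limma adjusted p = 0.0494) and did not pass in replicates 1 and 2 alone (limma adjusted p = 0.0549 on deposited values). The median log2 fold change of the 18 was -0.02.

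Cell cycle genes were listed too, because p21 can keep the DREAM repressor complex on their promoters. The p21 gene CDKN1A had a fold change of 0.997 in the paired, GC-corrected fit, and a part of p21 in their values was not tested. Of 12 such cell cycle genes, 3 fell, 0 rose and 9 did not pass in that fit (all genes 2.15% lower and 3.06% higher). Their median log2 fold change was -0.21. CDC20, the activator of the anaphase-promoting complex, fell by 27.6%, the survivin gene BIRC5 by 0.32 on the log2 scale and the mitotic kinase gene PLK1 by 18.0%. On deposited values of replicates 1 and 2, 6 of the 12 were called lower, against 4.59% of all genes. Of 7 tested genes of the integrated stress response, the programme driven by ATF4, 4 rose, 0 fell and 3 did not pass in that fit (all genes 3.06% higher and 2.15% lower), with a median of 0.36. DDIT3 rose 1.52-fold, TRIB3 1.51-fold, PPP1R15A 1.45-fold and ATF4 1.21-fold. ATF3, ASNS and CHAC1, named after their values were seen, did not pass. ATF3 and ASNS were higher in the pairs of replicates 1 and 2 and lower in that of replicate 3, at -0.74 and -0.75 after GC correction. CHAC1 was higher in 3 of 3 pairs. On deposited values of replicates 1 and 2, 5 of the 7 were called higher, against 4.52% of all genes. These lists were chosen with earlier results of the same libraries known and are not independent evidence of direction. A part of ATF4 in the changes of the p53 targets was not tested.

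**Figure D5:**
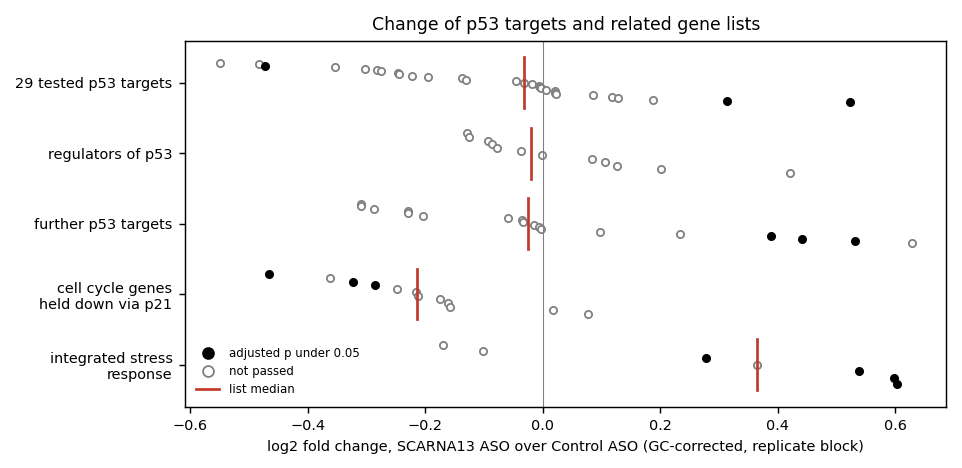
Log2 fold change (x axis, SCARNA13 ASO over Control ASO, GC-corrected fit with replicate pairs) of each tested gene in 5 lists, filled where the adjusted p is under 0.05, with the list median as a red line. The medians are -0.03 for the p53 targets, -0.21 for the cell cycle genes and 0.36 for the integrated stress response genes.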

How the data were processed

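RNA from HCCLM3 cells was made into libraries with an Illumina TruSeq kit, per the labels' protocols. The deposited files hold 1 FPKM value per gene and library, with gene length and position; the unit is inferred from the values, since value times length was a whole multiple of 1 step per library (100% at a tolerance of 0.01 reads), which also gave reads. TopHat2 2.0.9, Bowtie2 2.0.6 and hg19 are named in the submitters' processing notes, yet 97.6% of gene positions equal those of GENCODE 29 on GRCh38. No counting tool is named.

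limma 3.58.1 (R 4.3.3) was fitted to log2(FPKM + 0.5), a scale that understates changes of low genes, where the mean over 6 libraries reached 1 FPKM. Replicate numbers come from the titles, and deviations of same-numbered libraries from their group means correlated at 0.835, 0.785 and 0.915, so the numbers were taken as pairs; crossed pairs of replicates 1 and 2 correlated at 0.805 and 0.814, so the values set apart only replicate 3. The second fit subtracted a loess trend (span 0.5) on the GC content of the longest GENCODE 29 transcript and used the number as a block. Intervals on reads are exact and cover counting error only. The fits were also run on simulated libraries in which same-numbered libraries shared a mean profile, so that pairing was built in. That run therefore cannot show whether the real replicate numbers are pairs. Members, lists, tests and named genes (all members, the targeted RNA, its host gene, MDM4 and up to 4 passing genes per list) were chosen with earlier results of these data known.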

Additional observations from a re-analysis of the deposited data

How the results depend on the processing

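With the replicate block and GC correction, 309 genes were called higher and 217 lower, 2 and 1 of them p53 targets (loess span 0.3: 307, 215, 2 and 1). With no GC correction and all libraries, 0 were called at the other pseudocounts and filters, with rescaled libraries, with limma-voom and with the replicate block alone (smallest adjusted p = 0.0506). Leaving out libraries, the unpaired fit called 0 to 457 genes higher, 0 to 465 lower, and 0 to 2 and 0 to 4 members. Every count above 0 there came without replicate 3 of both groups. In the paired, GC-corrected fit, all counts were 0 without the block, without the GC correction, or with no filter on low values. A filter at 5 FPKM gave 560 higher and 452 lower, with 6 members lower (AEN, BTG2, DDB2, FDXR, PLK3 and SERTAD1), and a pseudocount of 1 left 1 member higher. Leaving out a replicate number in that fit gave 0 to 424 genes higher, 0 to 339 lower, and 0 to 2 members each way, with 6 higher and 8 lower genes without replicate 1. On deposited values of replicates 1 and 2, 465 genes and 4 members were lower. For the paired, GC-corrected fit, the other pseudocounts and filters, the version with no block and the deposited values of replicates 1 and 2 were chosen after seeing the data. The cause was not tested.

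The following log2 fold changes, of genes that did not pass in the unpaired fit, changed sign from it. Rescaling libraries to one summed FPKM moved the median of all genes by 0.118, and gave CDKN1A 0.0736, BAX 0.0731, BBC3 0.134, FAS 0.0957, TNFRSF10B 0.11, XPC 0.0831, TIGAR 0.104 and TRIAP1 0.1. The replicate block with GC correction gave BBC3 0.086 and XPC 0.00565, and BBC3 0.0939 and XPC 0.00108 at span 0.3. Without replicate 3 of both groups the values were CDKN1A 0.114, CCNG1 -0.0449, BAX 0.0424, BBC3 0.135, FAS 0.0593, TNFRSF10B 0.00186 and TIGAR 0.0146. Leaving out single libraries, unpaired, gave ranges of CDKN1A -0.515 to 0.561, PLK2 -0.0721 to 0.33, PLK3 -0.826 to 0.324, SERTAD1 -1.28 to 0.297, ZMAT3 -0.429 to 0.206, MDM2 -0.315 to 0.362, CCNG1 -0.54 to 0.549, BAX -0.504 to 0.477, BBC3 -0.29 to 0.42, FAS -0.113 to 0.118, TNFRSF10B -0.0775 to 0.0431, EDA2R -0.0932 to 0.362, AEN -0.789 to 0.23, PHLDA3 -0.44 to 0.7, TP53I3 -0.461 to 0.0406, TP53INP1 -0.698 to 0.259, XPC -0.162 to 0.0437, RRM2B -0.416 to 0.478, TIGAR -0.18 to 0.183, FDXR -0.912 to 0.227, TRIAP1 -0.265 to 0.188, GDF15 -0.317 to 0.91 and MDM4 -0.0219 to 0.339. GADD45A, which was higher, and BTG2, DDB2, PPM1D, TNFRSF10A, SUSD6 and POLH, which were lower, kept their direction under every setting run for them. The weakest values of PPM1D and POLH were -0.035 and -0.00298. GDF15 kept its direction under all settings but leaving out a single library. Depth limits SCARNA13, at 2 to 6 reads a library, and low members such as TP53INP1, at 32 reads in 1 library.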
